A study of Mus musculus with 2 samples.

Results

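Semaphorin signalling was followed in cultured precursor cells of white and brown adipose tissue through 10 genes, of the 32285 listed in each count matrix. The 10 were given as a list of names, with no threshold on a measured value. The secreted ligands are Sema3a, Sema3c, Sema3d and Sema3e, and Sema5a is a transmembrane ligand. Nrp1 and Nrp2 encode neuropilins, the binding receptors, and Plxna2, Plxna4 and Plxnd1 encode plexins, the signalling receptors. Stromal vascular cells were taken from the subcutaneous white and the interscapular brown depot of newborn C57/BL6J mice of both sexes (P0 in the sample labels, P1 in the study's methods), and grown to confluency in serum-containing medium. The labels name no transgene or treatment, and brown tissue was digested with collagenase for longer than white. Each depot gave 1 droplet library (10x Genomics 3′ chemistry) from pooled pups, WAT for white and BAT for brown, so no value below has a replicate and the depot cannot be told apart from its library.

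Semaphorins were first described as cues that steer growing axons. Class 3 semaphorins are secreted, bind a neuropilin and signal through a plexin of the A group, whereas Sema3e binds plexin D1 directly and Sema3c can use plexin D1 as well. Neuropilins also bind VEGF, and in adipose tissue these ligands are known for acting on vessels, nerve fibres and the precursors themselves.

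The filter of the study kept 4407 of 5261 white and 6137 of 7009 brown cells. Of these, 4331 and 5958 were precursor cells, with medians of 26949 and 26411.5 unique molecular identifiers (UMIs) per cell. The remainder fell into glial clusters of 47 white and 68 brown cells, myeloid clusters of 29 and 78 cells, and 33 brown myogenic cells. All 5 precursor markers (Pdgfra, Pdgfrb, Dlk1, Dcn, Col1a1) reached 10 counts per 1000000 UMIs (CPM) in both sets of precursors. The glial markers Sox10 and Erbb3 stood at 266 and 235 CPM in the white glial cluster and at 286 and 222 CPM in the brown one. Endothelial markers, 6 genes, summed to 4.40 and 5.11 CPM in white and brown precursors. The 2 libraries share 9 cell barcodes, 8 of them among the cells kept. The names of the precursor clusters are those of the authors, who clustered all precursor cells. Labels of fewer than 2000 cells per depot were available here, so cell numbers per cluster are not those of the study. The clusters comprise early precursors (wAPC 1 to 4, bAPC 1 to 5), committed adipogenic precursors (wCAPs, bCAPs), fibro-adipogenic progenitor-like cells (wFAPLs, bFAPLs) and 15 differentiating wFAPLs. Clusters were made from the same counts, with 8 of the 10 genes among the 2000 variable genes in WAT and 9 in BAT, so values by cluster are a description. The authors also describe bAPC 1 by its Sema3a.

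In the mouse genome (GRCm38, GENCODE M21 annotation) the 4 class 3 genes lie on the plus strand of chromosome 5, over 5.35 Mb. The order is Sema3d (chr5:12383385-12588948), Sema3a (chr5:13125414-13602565), Sema3e (chr5:14025276-14256689) and Sema3c (chr5:17574281-17730268). No protein-coding gene lies between Sema3d and Sema3a, 1 lies between Sema3a and Sema3e, and 16 lie between Sema3e and Sema3c. Nrp2 (chr1:62703285-62818695) and Plxna2 (chr1:194618218-194816869) share chromosome 1, and Plxna4 (chr6:32144268-32588192) and Plxnd1 (chr6:115954811-115995005) share chromosome 6 on the minus strand. Nrp1 is at chr8:128358604-128503363 and Sema5a at chr15:32244810-32696341. Gene lengths run from 40.2 kb for Plxnd1 to 477 kb for Sema3a. This chemistry is aimed at the 3′ end of transcripts, and intronic reads are counted by default as well. UMIs are not scaled by length, so levels are compared between cells for 1 gene, not between genes.

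RefSeq promoter windows of 250 bases before the start were matched for 9 of the 10 genes. Plxna4 has none here. For 3 genes, Sema3e, Plxnd1 and Sema3d, the window lies wholly outside the annotated gene, and these 3 windows are shown. Capitals mark GGGCGG, the GC box, and ACAAAG, a motif of SOX factors, on either strand. The build is GRCm38.p6, 5′ to 3′ along the gene.
Sema3e, chr5:14025026-14025275, plus strand: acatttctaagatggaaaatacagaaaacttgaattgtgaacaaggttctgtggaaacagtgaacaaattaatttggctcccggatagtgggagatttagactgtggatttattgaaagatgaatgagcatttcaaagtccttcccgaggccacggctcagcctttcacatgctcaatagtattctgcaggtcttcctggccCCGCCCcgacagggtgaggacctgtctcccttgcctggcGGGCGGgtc
Plxnd1, chr6:115995006-115995255, minus strand: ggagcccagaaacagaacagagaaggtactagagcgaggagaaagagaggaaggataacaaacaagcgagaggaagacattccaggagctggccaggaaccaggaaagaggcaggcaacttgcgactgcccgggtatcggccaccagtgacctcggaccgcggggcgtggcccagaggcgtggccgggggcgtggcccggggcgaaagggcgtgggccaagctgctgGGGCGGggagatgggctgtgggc
Sema3d, chr5:12382916-12383165, plus strand: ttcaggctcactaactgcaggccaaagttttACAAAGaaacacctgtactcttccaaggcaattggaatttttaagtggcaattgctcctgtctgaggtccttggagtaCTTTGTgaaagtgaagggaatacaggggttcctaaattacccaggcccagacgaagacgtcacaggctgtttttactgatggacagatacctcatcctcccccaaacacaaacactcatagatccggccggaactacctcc
Sema3e held GGGCGG at 2 places and Plxnd1 at 1, and Sema3d held ACAAAG at 2 places and no GGGCGG. Over the 9 windows, GGGCGG was found in 7, all but Sema3a and Sema3d, against 32.7% of 32851 promoter windows of the same length. ACAAAG was found in Sema3a and Sema3d, against 16.5% of all windows, and TATAAA in none of the 9, against 12.4%. GC content of the 7 windows with GGGCGG ran from 48% (Sema3e) to 78.4% (Sema3c), against a median of 52.4% over all windows. The windows of Sema3a, Sema3c, Nrp1 and Plxna2 lie wholly inside the annotated gene, and those of Sema5a and Nrp2 overlap its start. These matches describe letters in a window and are not binding sites.

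Levels are given as CPM, the UMIs of a gene summed over the cells of a group and divided by all UMIs of those cells, with an exact 95% Poisson interval. Ratios have conditional binomial intervals and shares of cells have Clopper-Pearson intervals, both at 95%. All of them cover counting error only. A difference is called past 2-fold where the gene reached 10 CPM on either side, and no p-value was computed.

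**Figure D1:**
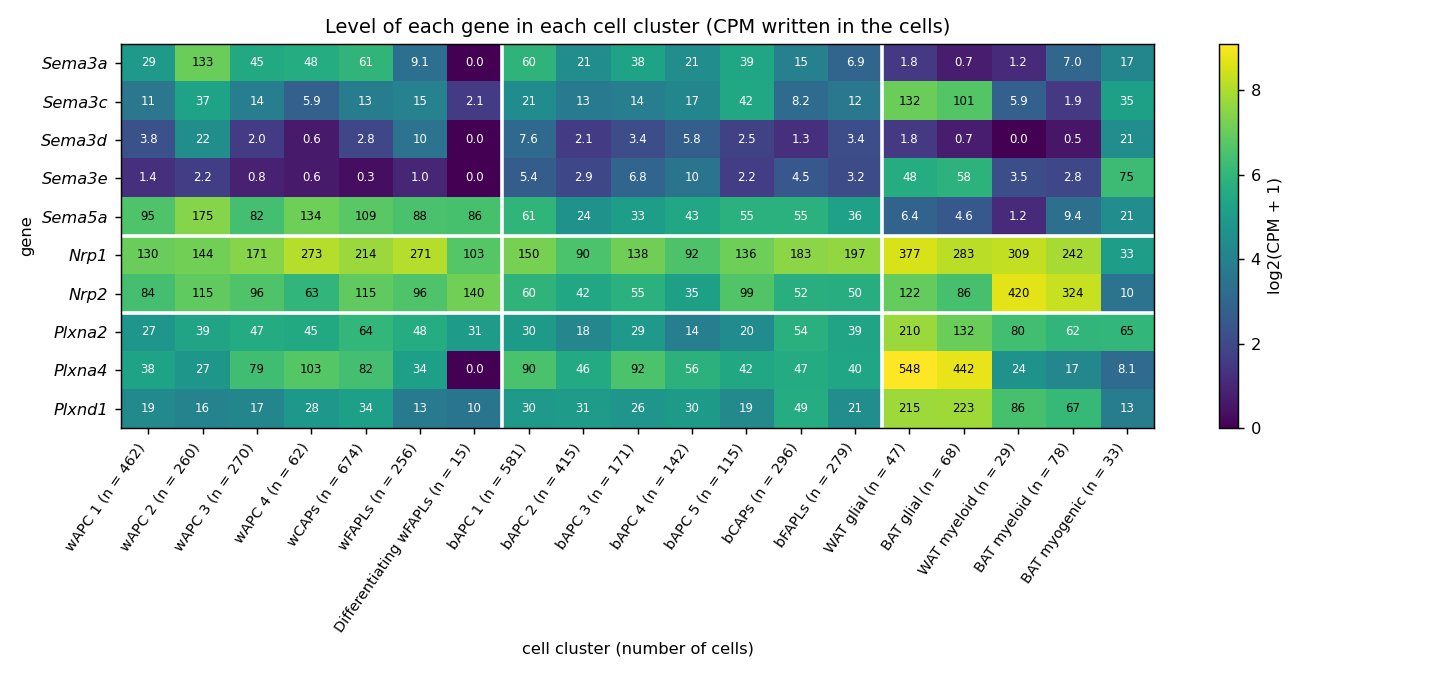
Level of the 10 genes (rows, ligands above neuropilins above plexins) in 14 precursor clusters and 5 other clusters (columns, with the number of cells), coloured by log2(CPM + 1), with CPM written in each cell. Sema3a stood at 133 CPM in wAPC 2 and at 1.83 and 0.66 CPM in the glial columns, where Plxna4 stood at 548 and 442 CPM.

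Among the secreted ligands, Sema3a, which repels many axons, was highest in early precursors and lowest in FAPLs. In white cells it stood at 133 CPM (125 to 142) in wAPC 2, followed by wCAPs at 61.2 (57.8 to 64.8). The clusters wAPC 4 and wAPC 3, at 48.3 (38.4 to 60.0) and 45.4 (40.3 to 50.8), did not differ beyond counting error, and wAPC 1 followed at 29.4 (26.6 to 32.3). The lowest white values were 9.07 CPM (7.00 to 11.6) in wFAPLs and 0 UMIs in the differentiating wFAPLs, which allows up to 6.29 CPM at 3 counts. In brown cells bAPC 1 was highest at 59.7 CPM (56.2 to 63.5), bAPC 5 and bAPC 3 overlapped at 39.3 and 37.7, and bFAPLs were lowest at 6.90 (5.15 to 9.05). The bFAPL level overlapped that of brown myeloid cells, 7.02 (3.93 to 11.6).

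Sema3c, a ligand that can act through both neuropilins, also peaked in wAPC 2, at 37.4 CPM (33.2 to 41.9) against 5.89 to 15.3 CPM in the other larger white clusters. Among brown clusters it was highest in bAPC 5, at 42.1 CPM (35.3 to 49.8), and bAPC 1 came next at 20.7 (18.6 to 22.9). The intervals of bAPC 5 and bAPC 1 did not overlap. Sema3d, the neighbour of Sema3a, reached 21.8 CPM (18.6 to 25.3) in wAPC 2 and 10.2 (7.98 to 12.8) in wFAPLs, and was under 10 CPM in every other precursor cluster. Within wAPC 2 the ratio over the other labelled white cells was 1.69 (1.58 to 1.80) on the log2 scale for Sema3a, 1.56 (1.36 to 1.77) for Sema3c and 2.47 (2.16 to 2.77) for Sema3d. These 3 secreted ligands of chromosome 5 had their highest white level in the same cluster.

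Sema3e, the ligand of plexin D1, was scarce in precursors, at 0.94 CPM (0.77 to 1.12) in white and 4.90 (4.57 to 5.25) in brown cells. Myeloid cells of the same libraries had 3.55 (0.73 to 10.4) and 2.81 CPM (1.03 to 6.11), so neither precursor level was separated from theirs by counting error. Only bAPC 4 passed 10 CPM among the precursor clusters, at 10.3 (7.60 to 13.7). The 33 brown myogenic cells held 74.8 CPM (58.8 to 94.0), the highest level of Sema3e in any cluster, and the white library had no myogenic cluster. The part of free RNA from these cells in the brown value was not tested.

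Sema5a, which spans the membrane, ranged among white clusters from 81.9 CPM (75.1 to 89.2) in wAPC 3 to 175 (166 to 185) in wAPC 2. Its brown levels ran from 24.1 (21.4 to 27.0) in bAPC 2 to 60.9 (57.3 to 64.6) in bAPC 1, all below the lowest white cluster. Outside the precursors it stood at 6.40 and 4.63 CPM in white and brown glial cells and 1.18 and 9.36 CPM in myeloid cells, while brown myogenic cells, at 21.2 (13.1 to 32.5), overlapped bAPC 2.

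Of the neuropilins, Nrp1 was highest in wAPC 4 at 273 CPM (249 to 299) and wFAPLs at 271 (259 to 283), which overlapped, and wCAPs followed at 214 (207 to 220). The brown order was headed by bFAPLs at 197 (188 to 208) and bCAPs at 183 (173 to 192), and bAPC 2 and bAPC 4 were lowest at 90.3 and 92.1. Nrp2 ranged less in white cells, from 63.1 CPM (51.7 to 76.2) in wAPC 4 to 140 (109 to 178) in the 15 differentiating wFAPLs. In brown cells bAPC 5 stood apart at 98.8 CPM (88.3 to 110), against 35.2 to 60.0 in the other clusters. Both neuropilins were also high in myeloid cells, Nrp2 at 420 CPM (378 to 466) in white and 324 (300 to 349) in brown, and Nrp1 at 309 and 242.

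Of the plexins, Plxna2 was highest in the CAPs of each depot, at 63.6 CPM (60.1 to 67.2) in wCAPs and 53.8 (48.9 to 59.0) in bCAPs. Plxnd1 was also highest in the CAPs of each depot, with 33.9 CPM (31.4 to 36.6) in wCAPs, which overlapped wAPC 4 at 27.7 (20.3 to 36.8), and 49.3 (44.6 to 54.3) in bCAPs. Plxna4 instead was highest in wAPC 4 at 103 CPM (88.4 to 120) and, in brown cells, in bAPC 3 and bAPC 1 at 91.8 and 89.7, which overlapped. It fell to 26.9 (23.4 to 30.8) in wAPC 2, the cluster with most Sema3a, and to 0 UMIs in the differentiating wFAPLs, at least 5.41-fold lower than in wFAPLs. Those 15 cells also carried 3047 CPM of 7 mural markers summed, against 295 in wFAPLs. Myh11 alone made up 2522 CPM of this sum, against 102 in wFAPLs. Rgs5, Notch3, Kcnj8 and Mcam were higher too. Abcc9 was level, at 60.8 against 60.2 CPM, and Cspg4 was lower, at 4.19 against 20.6. The part of mural-like cells in the Plxna4 value was not tested.

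Over all precursor cells, brown cells had less Sema5a, Nrp2, Sema3a, Plxna2 and Nrp1 than white cells and more Plxnd1. Sema5a stood at 106 CPM (105 to 108) in white and 45.1 (44.1 to 46.1) in brown cells, 2.36-fold lower in brown, with a log2 ratio of -1.24 (-1.28 to -1.20). It was the 1 gene past 2-fold of the 8 that reached 10 CPM. Over all 9037 genes tested, 0.73% were past 2-fold higher in brown and 1.11% lower. The median log2 ratio was -0.50 over the 8 genes and -0.04 over all genes tested.

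**Figure D2:**
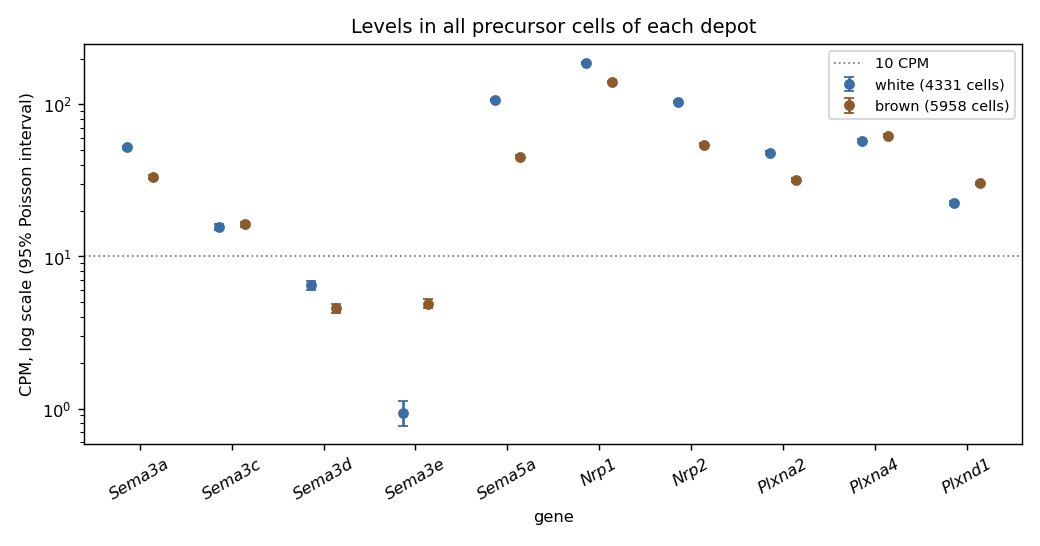
CPM on a log axis for each gene in all precursor cells of the white (blue) and brown (brown) library, with 95% Poisson intervals and a dotted line at 10 CPM. Sema5a is the widest separated pair above the line, 106 against 45.1 CPM, and Sema3e the widest below it, 0.94 against 4.90 CPM.

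Nrp2 followed with 104 CPM (102 to 106) in white and 54.4 (53.3 to 55.5) in brown cells, a log2 ratio of -0.94 (-0.98 to -0.90). Sema3a stood at 52.1 against 33.4 CPM (log2 -0.64), Plxna2 at 48.1 against 31.9 (-0.59) and Nrp1 at 187 against 141 (-0.41). Plxnd1 went the other way, at 22.5 CPM in white and 30.2 in brown cells, a log2 ratio of 0.43 (0.36 to 0.49). Sema3c at 15.5 and 16.3 CPM did not differ beyond counting error (log2 0.07, -0.02 to 0.15), and Plxna4 at 57.8 and 62.3 CPM had a log2 ratio of 0.11 (0.06 to 0.15). Sema3e was 5.24-fold higher in brown cells (log2 2.39, 2.11 to 2.68), but below 10 CPM on both sides.

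The depots were also compared within CAPs and within FAPLs. In CAPs, Sema3a was 14.8 CPM in brown and 61.2 in white cells, a log2 ratio of -2.05 (-2.34 to -1.78). In FAPLs the same gene had 6.90 and 9.07 CPM, and the ratio of -0.39 (-0.95 to 0.15) included 0. Plxna4 was lower in brown CAPs (-0.81, -0.97 to -0.65) and not distinguishable between FAPLs (0.23, -0.02 to 0.48). Sema5a and Nrp2 had similar ratios in both lineages, with -0.98 in CAPs and -1.28 in FAPLs for Sema5a, and -1.14 and -0.95 for Nrp2. Sema3d stood at 3.45 CPM in bFAPLs and 10.2 in wFAPLs, a ratio of -1.56 (-2.27 to -0.90). Plxnd1 was higher in both brown lineages, by 0.54 (0.36 to 0.72) in CAPs and 0.71 (0.33 to 1.10) in FAPLs.

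FAPLs were compared with CAPs within each depot, since the study describes them as the fibro-adipogenic and the adipogenic branch. In both depots FAPLs had less Sema3a and less Plxnd1. In white cells 4 of 9 tested genes were past 2-fold. Sema3a was lower (log2 -2.76, -3.14 to -2.39), as were Plxnd1 (-1.42, -1.75 to -1.10) and Plxna4 (-1.27, -1.47 to -1.08), and Sema3d was higher (1.87, 1.34 to 2.41). Of all 9199 genes tested in white cells, 2.25% were past 2-fold higher in wFAPLs and 1.6% lower. The median over the 9 genes was -0.30, against -0.01 over all. The calls of Sema3d, Plxna4 and Plxnd1 each depended on the depth or the labels used, as given with the alternatives.

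In brown cells 2 of 8 tested genes were past 2-fold, Sema3a (log2 -1.10, -1.59 to -0.62) and Plxnd1 (-1.24, -1.52 to -0.97), both lower in bFAPLs. Of all 9148 genes tested, 1.86% were higher and 2.01% lower, and the medians were -0.35 over the 8 genes and -0.04 over all. Plxna4 had a ratio of -0.24 (-0.46 to -0.02), short of the white value of -1.27. Nrp1 was slightly higher in FAPLs of both depots, by 0.34 (0.26 to 0.42) in white and 0.11 (0.01 to 0.22) in brown cells. Mural markers moved with this contrast, summing to 295 and 277 CPM in wFAPLs and bFAPLs against 51.4 and 81.8 in wCAPs and bCAPs, with all 7 at 10 CPM or more in both FAPL clusters, and their part was not tested.

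**Figure D3:**
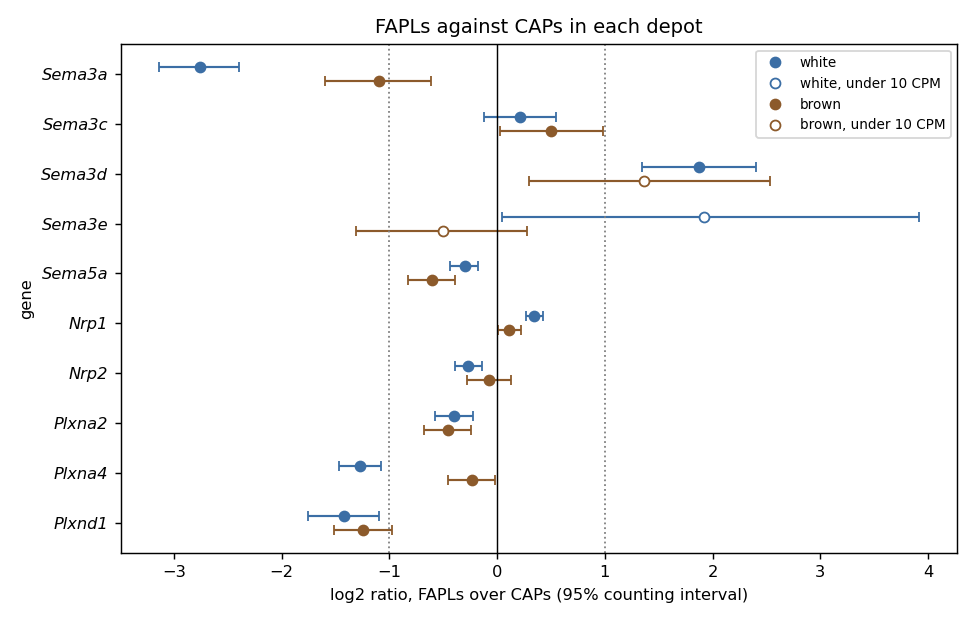
Log2 ratio of each gene in FAPLs over CAPs, white (blue) and brown (brown), with 95% counting intervals; open circles are genes under 10 CPM on both sides and dotted lines mark 2-fold. Sema3a lies at -2.76 and -1.10 and Plxnd1 at -1.42 and -1.24, and Nrp2 lies near 0 in both depots.

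Glial cells had another set of these genes than the precursors around them. Both glial clusters had more of all 3 plexins, of Sema3c and of Sema3e, and nearly no Sema3a or Sema5a. In each depot 6 of 9 tested genes were past 2-fold higher and 2 were lower. Over all genes tested, 13.4% were higher and 12.7% lower in white glial cells, and 13.3% higher and 11.5% lower in brown ones. The median log2 ratio of the 9 genes was 2.13 in WAT and 2.05 in BAT, against 0.14 over all genes tested in either depot. The median ratio of all genes at 10 CPM or more on both sides was 0.14 in WAT and 0.15 in BAT, so ratios are to be read against that shift.

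Plxna4, a plexin of the A group, stood at 548 CPM (505 to 593) in white and 442 (409 to 476) in brown glial cells, against 57.8 and 62.3 in precursors. That is 9.47-fold and 7.09-fold higher. Plxnd1 was 9.56-fold higher in white glial cells, at 215 CPM (188 to 244), and 7.39-fold in brown ones, at 223 (200 to 248). Plxna2 was 4.37-fold and 4.15-fold higher, at 210 and 132 CPM. Plxnd1 and Plxna2 were also found in a larger share of myeloid cells than of precursors, as given by cell below. Of the neuropilins, Nrp1 stood at 377 and 283 CPM and Nrp2 at 122 and 86.1. The log2 ratios of Nrp1, 1.01 in white and 1.00 in brown cells, fell below 2-fold when centred on the median of all genes, to 0.87 and 0.86. Nrp2 was within 2-fold, at 0.22 (-0.03 to 0.47) and 0.66 (0.40 to 0.91).

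Among the ligands, Sema3c had 132 CPM (111 to 155) in white and 101 (85.3 to 118) in brown glial cells, 8.47-fold and 6.18-fold over precursors. Sema3e had 48.4 (36.3 to 63.4) and 58.3 CPM (46.7 to 71.8), log2 ratios of 5.69 and 3.57. The precursor levels behind these ratios were 0.94 and 4.90 CPM, and the glial levels themselves had a brown to white log2 ratio of 0.27 (-0.24 to 0.79). Sema3a had 2 UMIs in the white and 1 in the brown glial cells, log2 ratios of -4.83 (-7.88 to -2.98) and -5.66 (-10.96 to -3.18). Sema5a had 7 UMIs in each, with ratios of -4.06 (-5.37 to -3.01) and -3.28 (-4.60 to -2.24). Without upper limits on genes and UMIs per cell the white ratios were -2.45 for Sema3a and -2.33 for Sema5a. In the brown glial cells with an available label of the authors, Sema3a had 0 UMIs and a ratio of at most -2.33. Sema3d also had 2 and 1 UMIs, but its precursor level was below 10 CPM.

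**Figure D4:**
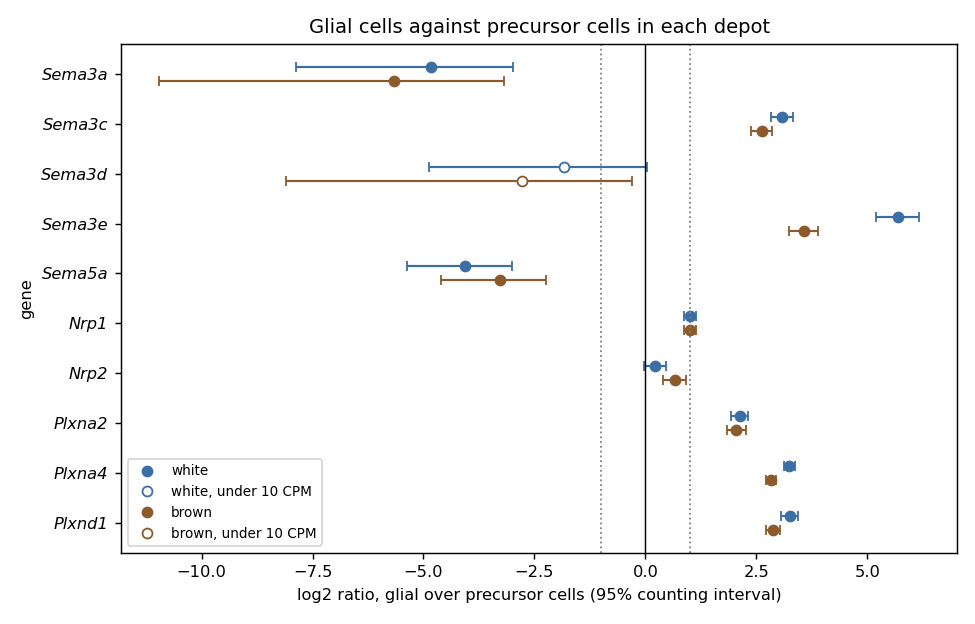
Log2 ratio of each gene in glial over precursor cells, white (blue, 47 glial cells) and brown (brown, 68 glial cells), with 95% counting intervals; open circles are under 10 CPM on both sides and dotted lines mark 2-fold. The plexins lie between 2.05 and 3.26, and Sema3a and Sema5a lie left of -3 in both depots.

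Precursor markers summed to 1641 and 1730 CPM in the white and brown glial cells, against 6172 and 5703 in precursors, with 4 of the 5 at 10 CPM or more. Col1a1 made up 1547 and 1611 CPM of these sums, and Pdgfra stood at 5.48 and 6.62 CPM, against 117 and 83.7 in precursors. Their part in the glial values was not tested. Endothelial markers summed to 2.74 and 0.66 CPM there, and Cdh5, Kdr, Tie1 and Cldn5 had 0 UMIs in both clusters. Glial labels of the authors were available here for 20 white and 22 brown cells, only part of those the study counted as glial. All of these labelled cells lay in the glial clusters.

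Counted by cell, after thinning every cell to 10000 UMIs, Sema3a was found in 25.4% of white and 19.5% of brown precursors, and in 2.13% and 1.47% of glial cells, 1 cell in each. Without thinning the precursor shares were 39.4% and 33.5%, and the glial medians were 20668 and 19494.5 UMIs per cell. In wAPC 2 the thinned share was 53.5%, against 4.69% in wFAPLs and 4.66% in bFAPLs. Myeloid cells had Sema3a in 3.45% (WAT) and 6.41% (BAT), so the bFAPL share was not above that background. Sema3c was found in 66.0% of white and 54.4% of brown glial cells (78.7% and 77.9% unthinned), against 10.7% and 11.9% of precursors and 3.45% and 1.28% of myeloid cells. Plxna4 was found in 97.9% and 85.3% of glial cells (100% and 94.1% unthinned), in 28.1% and 32.1% of precursors and in 10.3% and 14.1% of myeloid cells. Plxnd1 was found in 74.5% and 82.4% of glial cells, 18.9% and 23.8% of precursors and 55.2% and 44.9% of myeloid cells. For Plxna2 the shares were 68.1% and 51.5% of glial cells, 31.1% and 22.0% of precursors and 62.1% and 35.9% of myeloid cells. Sema3e was found in 0.81% of white precursors and in 0 of 29 white myeloid cells, and in 3.94% of brown precursors and 2.56% of brown myeloid cells.

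**Figure D5:**
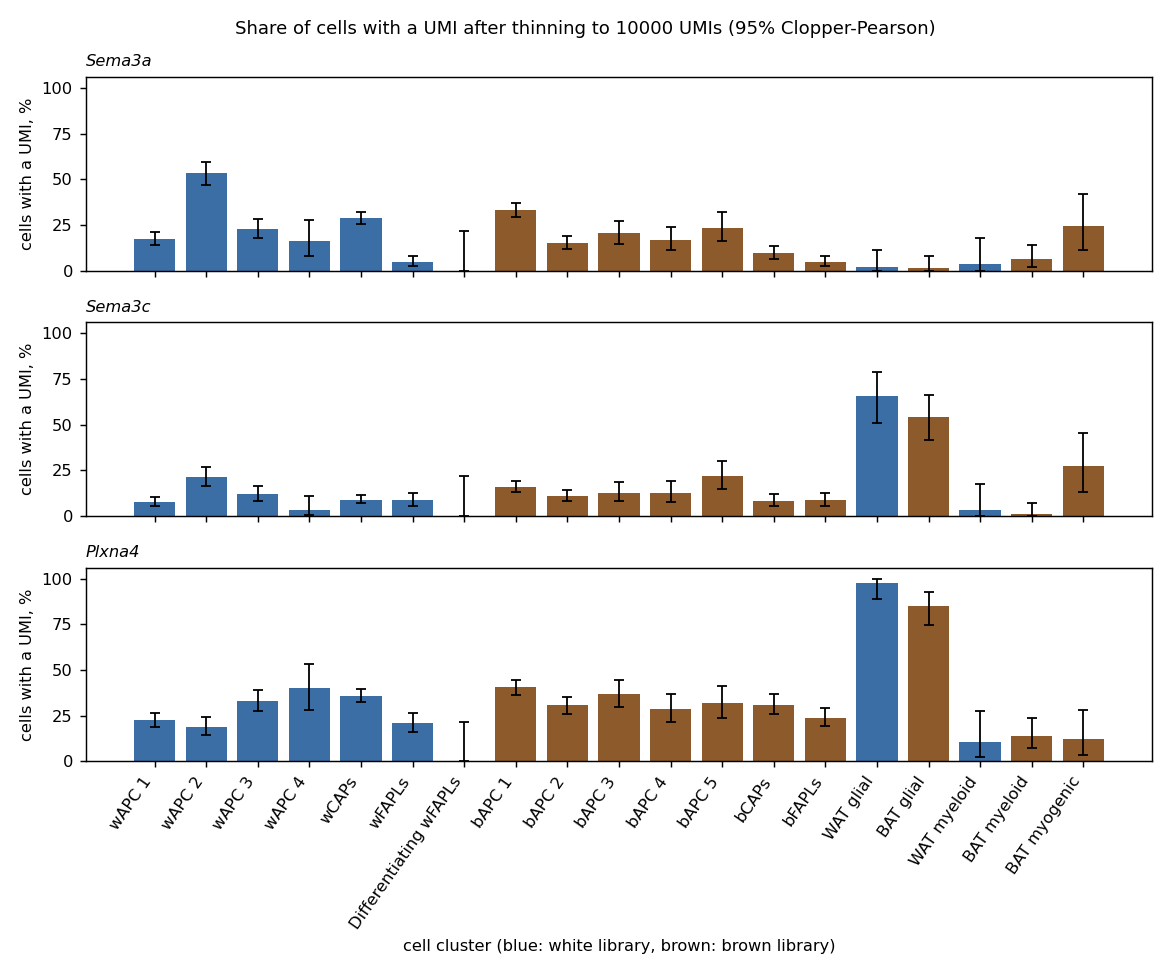
Share of cells with a UMI of Sema3a, Sema3c and Plxna4 in each cluster after thinning to 10000 UMIs per cell, with 95% Clopper-Pearson intervals (bars blue for the white and brown for the brown library). Sema3a is tallest in wAPC 2 at 53.5%, and Sema3c and Plxna4 are tallest in the glial clusters, Plxna4 at 97.9% and 85.3%.

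Precursor cells were uneven in some of these genes. The 10% of thinned white precursors with most Sema3a held 68.1% of its UMIs, and 71.7% in brown cells. For Plxnd1 these values were 59.7% and 53.1%. Sema3a was found in 25.4% of white precursors, against 41.4% for an even spread of its UMIs, and in 19.5% against 28.5% in brown cells. Plxna4 was found in 28.1% of white precursors where an even spread of the same UMIs would have given 43.8%, and in brown cells in 32.1% against 45.7%. For Plxnd1 the 2 shares were close, 18.9% against 19.8% in white and 23.8% against 25.6% in brown cells. In glial cells the shares for Plxna4 were 97.9% against 99.6% in WAT, near the ceiling of the measure, and 85.3% against 98.2% in BAT.

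Ligands were also counted together. Only Sema3a, Sema3c, Sema3d and Sema3e entered this count, not Sema3b, Sema3f or Sema3g. None of these 4 was found in 65.5% of white and 67.8% of brown precursors. The share was 34.2% in wAPC 2, 82.0% in wFAPLs and 84.2% in bFAPLs. In glial cells that share was 23.4% in WAT and 29.4% in BAT. Sema3a and Sema3c were found in the same cell in 4.34% of white precursors, where the product of their shares was 2.72%, and in 3.56% against 2.32% in brown ones. These values pool clusters with different levels of both genes. Within clusters they were close in wAPC 2 (11.9% against 11.3%) and wFAPLs (0.39% against 0.40%). They lay further apart in wCAPs (4.01% against 2.61%) and bAPC 1 (6.71% against 5.26%). Of the 5 receptors, the mean number found per cell was 2.07 in white and 1.81 in brown precursors, and 4.04 and 3.60 in glial cells.

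Levels were also taken by the scored cell cycle phase. Sema3c was lower in G2M than in G1 cells in both depots, with log2 ratios of -0.38 (-0.55 to -0.21) in white and -0.64 (-0.80 to -0.49) in brown cells. Sema3a had a ratio of -0.48 (-0.57 to -0.39) in white and -0.13 (-0.22 to -0.03) in brown cells. Apart from Sema3e in white S phase cells, at 1.72 CPM, no gene was past 2-fold between phases.

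The wider pathway was read from lists of related genes. Of 3 other class 3 semaphorins, Sema3f was past 2-fold higher in FAPLs of both depots, at 10.0 against 1.55 CPM in white (log2 2.70) and 14.2 against 5.12 in brown cells (1.47). It was the only 1 tested there, against 2.25% of all genes higher in wFAPLs and 1.86% in bFAPLs. Sema3b was high in glial cells, at 63.1 CPM in WAT and 78.1 in BAT, and Sema3g at 13.7 CPM in WAT (15 UMIs) and 6.62 in BAT, the latter under 10 CPM with a log2 ratio of 5.09 (3.90 to 6.14). Of 12 transmembrane and GPI-linked semaphorins, 2 of 3 tested were higher in wFAPLs, Sema5b (log2 3.45) and Sema6d (1.07), against 2.25% of all genes. None of 2 tested passed in bFAPLs, where Sema5b was under 10 CPM with a ratio of 2.87 (1.90 to 3.99). In white glial cells 5 of 6 tested were higher, against 13.4% of all genes, and in brown ones 3 of 4, against 13.3%, among them Sema4f at 69.5 and 68.8 CPM, Sema4c at 74.0 and 76.8, and Sema6d at 40.2 and 27.1.

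Of 6 other plexins, Plxnc1, a receptor for Sema7a, was lower in FAPLs of both depots (log2 -2.07 in white, -1.71 in brown). It was the only 1 of 3 tested past 2-fold, against 1.6% of all genes lower in wFAPLs and 2.01% in bFAPLs. In glial cells Plxnb3, a receptor for Sema5a, stood at 44.8 CPM in WAT and 51.6 in BAT, against 1 and 8 UMIs in all precursors, and Plxnb1 was higher too (3.18 and 2.76). Plxnc1 was lower (1 and 4 UMIs), and Plxna1 was lower in white glial cells (-1.14). Ligand Sema5a and receptor Plxnb3 had their higher levels in different cells, precursors and glia.

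Of 8 VEGF ligands and receptors, Flt1, a VEGF receptor, was higher in FAPLs, at 83.8 against 19.1 CPM in white and 48.4 against 6.95 in brown cells. It was the only 1 of 5 tested past 2-fold, against 2.25% of all genes higher in wFAPLs and 1.86% in bFAPLs. Vegfc, a lymphatic growth factor, was the 1 list gene past 2-fold between depots, at 43.7 CPM in brown and 21.7 in white precursors (log2 1.01, 0.95 to 1.07). Over all genes tested, 0.73% were past 2-fold higher in brown precursors. In glial cells of both depots Pgf was higher (104 and 48.3 CPM), and 4 of 6 tested were lower, Vegfa, Vegfc, Vegfd and Flt1, against 12.7% of all genes in WAT and 11.5% in BAT. Of 8 partner receptors and adhesion molecules, 5 of 7 tested were higher in white and 4 of 7 in brown glial cells, against 13.4% and 13.3% of all genes, among them L1cam (123 and 138 CPM), Nrcam (131 and 94.0) and Chl1 (66.7 and 88.7), neural adhesion molecules that associate with neuropilins. Met was lower in wFAPLs (-1.09), the only 1 of 4 tested past 2-fold there, against 1.6% of all genes.

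Of 22 signal transducers 17 were tested in each comparison. The cytoskeletal oxidase Mical2 was the only one past 2-fold between FAPLs and CAPs, higher in both depots (1.16 and 1.25). Over all genes tested, 2.25% were past 2-fold higher in wFAPLs and 1.86% in bFAPLs. In white glial cells 3 were higher, Dpysl3 (1.44), Mical3 (1.57) and Arhgef12 (1.26), and 2 lower, Mical2 (-2.15) and Farp1 (-1.07), against 13.4% and 12.7% of all genes, so the list's counts were near the background. In brown glial cells 5 were higher, among them Dpysl3 (1.61) and Mical3 (1.31), and Mical2 was lower (-1.94), against 13.3% and 11.5% of all genes. Medians over the genes tested in each list, glial over precursor, ranged from -3.09 for the VEGF list to 5.98 for the other class 3 semaphorins in WAT, against 0.14 over all genes.

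Genes with the most similar profile were sought by Pearson correlation of log2(CPM + 1) over 16 profiles, the 14 precursor clusters and 2 glial clusters, among 10733 genes. The points share libraries, so the values are a description. The nearest genes were Dchs1 (0.96), Nrg1 (0.96) and Nxn (0.95) for Sema3a, and Adgrl3 (0.95), Nr4a2 (0.94) and Robo2 (0.93) for Sema3c. Plxna4 was nearest to Dpysl3 (0.97), Pithd1 (0.97) and Mtr (0.96), and Plxnd1 to Angptl2, Gpc1 and Mtss2 (0.96 to 0.95). For Sema5a they were Mcu, Hoxc5 and Slc4a4 (0.96 to 0.95), for Sema3e Gmfb, Cttn and Gm30074 (0.95 to 0.93), and for Plxna2 Casd1, Cenpj and Plscr4 (0.95 to 0.93). Nrp1 was nearest to Emsy, Spast and Tmem241 (0.91 to 0.88) and Nrp2 to Mlh3, Vapb and Glud1 (0.90 to 0.86). Sema3d had the weakest likeness, with Tbc1d24, Tmem168 and Per1 (0.80 to 0.79). Among the 10 genes themselves, Nrp1 and Plxna2 had a correlation of 0.88 over the 16 profiles and 0.82 over the 14 precursor clusters. Sema3a and Plxna4 had 0.13 and 0.79, and Sema3e and Nrp2 had -0.20 and -0.79. Sema3a, Plxna4 and Sema3e all had 0 UMIs in the 15 differentiating wFAPLs, whose weight in these values was not tested. The 14 clusters also mix the depots, between which Sema3e was higher and Nrp2 lower in brown cells. Sema3a and Plxna4 had 0.85 over the 7 white and 0.70 over the 7 brown clusters. Sema3e and Nrp2 had -0.28 and -0.59 there. Among white clusters wAPC 2 had the most Sema3a, 133 CPM, and with 26.9 CPM the least Plxna4 apart from the differentiating wFAPLs. By cell, Plxna4 was found in 22.7% of white precursors with Sema3a and 29.9% of those without, and in 36.7% and 31.0% of brown ones.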

How the data were processed

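To make the matrices, the authors ran Cell Ranger 7.0.1 at default settings on the mouse genome mm10. The deposited values are raw UMI counts of called cells, without normalization. By its default this version also counts intronic reads.

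The study's limits were applied to each cell: over 3900 and under 7700 genes (of those found in at least 3 cells), 1.7 to 5% mitochondrial UMIs and 6000 to 60000 UMIs. Doublets were not called, and these upper limits were the only guard. Glial, myeloid and myogenic clusters were found again in Seurat 5.3.0, run in R 4.3.3 (2000 variable genes, 10 components, resolution 0.5) and named where at least 3 markers reached 50 CPM and 2 times the other clusters. Precursor clusters are the labels of the authors, which were available here for part of the cells. Carried to the other cells by vote of 15 neighbours, 90.8% (white) and 87.6% (brown) of held-out labels were recovered. Sums, intervals and thinning were computed in Python 3.11.15 (scipy 1.17.1, numpy 2.4.6, scikit-learn 1.9.0, pandas 2.3.3) and tested on simulated data. Sequences and positions came from RefSeq and GENCODE tables of the same build, whose release may differ from that of the counting.

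The genes, lists and comparisons were chosen with earlier results of these data known. Named genes are the 10 members, the 3 most alike to each, and the list genes with the largest ratios in each direction. Alternatives were centred ratios, means over cells, thinned cells, a minimum of 1 CPM and no upper limit on genes and UMIs. G1 cells, carried labels and the glial cells with an available label of the authors were also used. Some marker genes are not reported here.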

Additional observations from a re-analysis of the deposited data

How the results depend on the processing

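With 1 library per depot, no alternative tests the spread between animals or cultures. Between depots the number of genes past 2-fold was 1 (Sema5a) and became 2 with a minimum of 1 CPM, which adds Sema3e. For wFAPLs over wCAPs it was 4 and became 2 with thinned cells, where Sema3d no longer reached 10 CPM and Plxna4 was at -0.95, and 2 with carried labels, where Sema3d no longer reached 10 CPM and Plxnd1 was at -0.98. In G1 cells it was 3, without Sema3d. For bFAPLs over bCAPs it was 2 to 3, and Sema3a and Plxnd1 passed in each alternative run. For glial cells it was 8 and ranged from 7 to 9 in both depots, with Nrp1 lost where it was 7. Without upper limits on genes and UMIs the white glial ratios of Sema3a and Sema5a were -2.45 and -2.33. In the brown glial cells with an available label of the authors, Sema3a had 0 UMIs, at most -2.33. Of 300 values of single genes, 266 moved by less than their counting interval and 34 by more, and no value past 2-fold changed sign. Among the 266, the 50 values at a minimum of 1 CPM could not move, since that setting alters only which genes are called. The cause of the 34 moves was not tested. Removing the upper limits was not run for FAPLs against CAPs, since the labels cover filtered cells. No paired analysis was possible because each group is 1 library. The 15 differentiating wFAPLs and the glial clusters limit what low counts can show.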
